A study of Anthoceros agrestis with 2 samples.

Results

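Bins with low partial CG methylation were 1 kb stretches of the chromosomes AnagrOXF.S1 to AnagrOXF.S5 in which some CG cytosines were methylated and CHG cytosines hardly were. They were selected on the measured levels of the merged report: a CG level of 5% or more and below 50%, and a CHG level below 5%. A level is the share of reads that found a cytosine methylated, and a bin level is the mean over its cytosines with at least 10 reads. Of 112633 bins, 102703 (91.2%) held the required 5 CG and 5 CHG sites, and 10705 of these (10.4%) met the rule. They are referred to as partial bins. The rule fixed their CG and CHG levels, which are therefore given as a description with no test.

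The DNA came from wild type thalli of the hornwort *Anthoceros agrestis* (Oxford strain), a bryophyte, collected at 4 wk as a single group of 2 biological replicates. Cytosine methylation was read by Enzymatic Methyl-seq (EM-seq), in which enzymes convert unmethylated cytosines so that they are sequenced as thymine. Replicate 1 held 323429467 cytosine calls, replicate 2 held 325691541, and a report of the merged reads held 648374160. With a single group no comparison of conditions was possible. Values are those of the merged report, followed where available by the mean ± SD of the replicate reports (n = 2, sites with at least 5 reads).

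In plants, a CG site is a symmetric pair of cytosines on opposite strands, and the methyltransferase MET1 copies its state to the new strand after replication. CHG methylation, where H is any base but G, is maintained by chromomethylases together with histone H3K9 methylation and is typical of silenced transposable elements (TEs). In flowering plants CG methylation without CHG is known from the bodies of expressed genes. The hornwort thallus is the gametophyte, which is haploid, so a cytosine that occurs at a single place in the genome has a single allele in each nucleus.

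A partial CG level can arise from single CG sites that are each nearly fully methylated or unmethylated, or from sites that are themselves intermediate. Throughout, a site was low below 20%, intermediate from 20% to below 80%, and high at 80% or more. Stretches of 200 bp from 6 partial bins show what these states look like along the DNA, 2 from each kind of bin defined below. Each stretch was picked from its bin for holding the most sites of the states it illustrates. The letters were rebuilt from the sequence contexts that the report lists for every cytosine, and n marks a base that no context covers. Capitals mark the high CG cytosines in the all-or-none and mixed windows and the intermediate CG cytosines in the intermediate windows. A capital C lies on the printed strand, and a capital G stands for the cytosine opposite it.
All-or-none window 1, AnagrOXF.S1:14952201-14952400, plus strand: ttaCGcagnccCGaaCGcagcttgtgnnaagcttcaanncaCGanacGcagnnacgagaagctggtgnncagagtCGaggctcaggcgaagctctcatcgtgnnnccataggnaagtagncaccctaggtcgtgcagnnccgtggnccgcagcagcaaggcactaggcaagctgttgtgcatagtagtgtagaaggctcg
All-or-none window 2, AnagrOXF.S1:13563583-13563782, plus strand: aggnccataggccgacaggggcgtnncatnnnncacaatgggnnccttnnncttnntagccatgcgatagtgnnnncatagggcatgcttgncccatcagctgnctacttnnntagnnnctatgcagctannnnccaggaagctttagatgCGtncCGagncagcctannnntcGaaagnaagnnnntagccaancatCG
Mixed window 1, AnagrOXF.S2:26964016-26964215, plus strand: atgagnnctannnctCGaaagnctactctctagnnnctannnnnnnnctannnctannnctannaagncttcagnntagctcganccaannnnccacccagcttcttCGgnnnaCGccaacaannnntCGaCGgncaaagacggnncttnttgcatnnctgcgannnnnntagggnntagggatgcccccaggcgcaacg
Mixed window 2, AnagrOXF.S3:13246151-13246350, plus strand: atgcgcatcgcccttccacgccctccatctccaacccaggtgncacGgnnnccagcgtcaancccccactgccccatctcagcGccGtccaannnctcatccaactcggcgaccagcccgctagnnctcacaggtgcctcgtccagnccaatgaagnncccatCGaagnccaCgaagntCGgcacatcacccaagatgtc
Intermediate window 1, AnagrOXF.S4:689406-689605, plus strand: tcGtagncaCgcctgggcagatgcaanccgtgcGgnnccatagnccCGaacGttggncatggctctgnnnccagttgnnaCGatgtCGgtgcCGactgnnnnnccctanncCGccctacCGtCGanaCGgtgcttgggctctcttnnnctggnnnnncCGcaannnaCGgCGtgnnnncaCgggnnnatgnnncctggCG
Intermediate window 2, AnagrOXF.S5:12474022-12474221, plus strand: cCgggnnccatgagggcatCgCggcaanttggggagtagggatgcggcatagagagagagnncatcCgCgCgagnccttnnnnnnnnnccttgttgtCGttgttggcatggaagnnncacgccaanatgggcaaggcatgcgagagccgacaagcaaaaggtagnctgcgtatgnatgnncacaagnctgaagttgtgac

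In all-or-none window 1, 11 high and 5 intermediate sites filled the first part of the stretch and 10 low sites the rest, without overlap. The mean CG level of this stretch was 51.7% in replicate 1 and 48.4% in replicate 2. Mixed window 1 held 10 high and 9 intermediate sites and no low site, with means of 71.5% and 65.2%. In intermediate window 1, 29 of 36 covered CG sites were intermediate, from 20% to 68.8% with a median of 36.4%, at a median of 15 reads. Its mean was 45.1% in replicate 1 and 19.3% in replicate 2, so the level of this stretch was not alike in the replicates. The remaining windows, of all 3 kinds, also differed. The means were 45.2% and 67.7% in all-or-none window 2, and 29.2% and 54.0% in mixed window 2. In intermediate window 2 they were 21.4% and 34.8%.

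Across all partial bins, most CG sites were unmethylated and the methylated ones were a mixture of high and intermediate sites. Of 388621 covered CG sites, 74.8% were low (74.4 ± 0.329%, n = 2), 16.4% high (17.6 ± 0.888%, n = 2) and 8.87% intermediate (8.03 ± 0.559%, n = 2). A level of exactly 0 was read at 68.6% of the sites and a level of 100% at 7.96%. Among the sites at 20% or more, 35.2% were intermediate (31.4 ± 2.59%, n = 2). The same share was 21.2% (19.04 ± 2.73%, n = 2) in 6970 bins with CG but no CHG methylation, defined by 50% or more in CG and below 10% in CHG. It was 3.06% (3.94 ± 0.458%, n = 2) in 34549 bins methylated in both contexts, defined by 50% or more in CG and 30% or more in CHG. In unmethylated bins, where few sites reach 20%, it was 79.4% (78.7 ± 0.160%, n = 2), and in the other scored bins 25.8% (24.6 ± 0.533%, n = 2). The share in partial bins thus lay between those of unmethylated and of more highly methylated bins. The limits that define an intermediate site set its share, which was 14.4% with limits of 10% and 90% and 5.35% with limits of 30% and 70%.

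**Figure D1:**
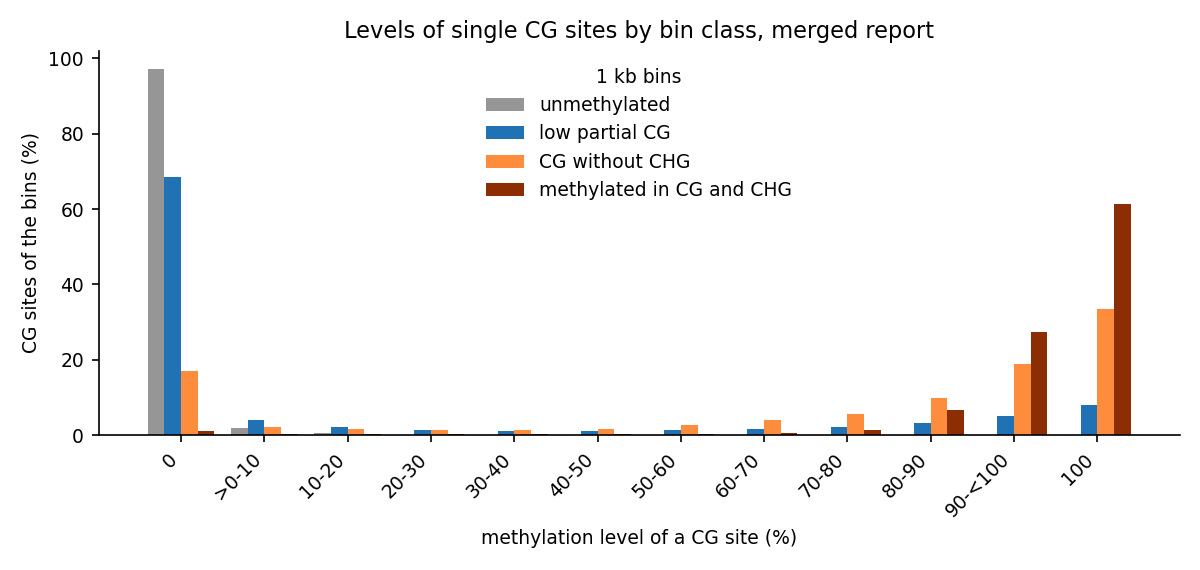
Methylation level of single CG sites (x axis, percent) against the share of the CG sites of each kind of bin (y axis, percent) in the merged report, with bars for unmethylated bins, partial bins, bins with CG but no CHG methylation and bins methylated in both contexts. In partial bins the bars peaked at 0 (68.6%) and rose again to 7.96% at 100%, with a low continuous band between.

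The spread of site levels within a bin was summarised by an index that is 1 when every site is fully methylated or unmethylated and 0 when all sites share the level of the bin, after removal of counting noise. Its median was 0.778 (0.797 ± 0.0210, n = 2) over the 10589 partial bins with at least 10 covered CG sites. In bins with CG but no CHG methylation it was 0.638 (0.677 ± 0.0346, n = 2). In the other scored bins it was 0.772 (0.781 ± 0.00998, n = 2), so an index of this height was not particular to partial bins. Bins methylated in both contexts, where 95.4% of the sites were high, had a median of 0.00960. The median was 0 in unmethylated bins, where 99.6% of the sites were low. A high index thus needs both methylated and unmethylated sites in the same bin. The index changed little with the level of the bin, with medians of 0.737 in the 2563 bins at 5% to 10%, 0.801 in the 1973 bins at 20% to 30% and 0.753 in the 1562 bins at 40% to 50%. The intermediate share of the sites at 20% or more moved further, from 51.2% in the lowest of these ranges to 30.5% in the highest. At sites with at least 20 reads only 366 bins met the rule, and their index was 0.418 with 13.9% of sites intermediate.

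Bins were grouped by the sites at 20% or more. A bin was all-or-none where its high sites were at least 2 times as many as its intermediate sites, intermediate in the opposite case, mixed between these, and too sparse with fewer than 3 such sites. By this rule 5617 partial bins (52.5%) were all-or-none (56.2 ± 4.17%, n = 2), 2828 (26.4%) mixed (23.6 ± 2.94%, n = 2), 1542 (14.4%) intermediate (11.1 ± 1.62%, n = 2) and 718 (6.71%) too sparse. The median CG level was 6.83% in the too sparse bins, 10.4% in the intermediate, 22.9% in the all-or-none and 23.1% in the mixed bins. Of bins with CG but no CHG methylation 83.7% were all-or-none and 0.488% intermediate. The grouping of a single bin was less repeatable than the totals, since 65.1% of all-or-none, 20.5% of mixed and 26.98% of intermediate bins had the same class in both replicate reports.

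Read depth bears on how well an intermediate level can be told from a high or low one. The intermediate share of the sites was 8.91% at 10 to 14 reads, 8.57% at 15 to 19 reads and 9.71% at 20 to 27 reads, so it did not shrink at deeper sites. For 17754 of 34463 intermediate sites (51.5%), the exact 95% binomial interval lay wholly between 10% and 90%. Such intervals cover counting error only. Median depth was 13 reads at low, 13 at intermediate and 12 at high sites. More than 27 reads were found at 0.557% of intermediate, 0.413% of low and 0.0645% of high sites, and the part of deeper sites in the intermediate levels was not tested beyond their removal, after which 8.85% of sites were intermediate.

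The cytosines of a CG pair lie on opposite strands and are counted from different reads. Over 117420 pairs covered on both strands, the levels of the strands had r = 0.977, given as a description because pairs within a bin share libraries. Only 4 of all these pairs were high on one strand and low on the other. Of 13262 pairs with an intermediate strand, 51.6% were intermediate on both. Within these 13262 pairs the strands differed by a root mean square of 19.3 percentage points, where counting alone would give 17.6. In bins methylated in both contexts 36.6% of the pairs with an intermediate strand were intermediate on both strands. The strands of these pairs differed by 21.2 points against 15.9 from counting. Bins with CG but no CHG methylation were close to the partial bins, with 48.2% of such pairs intermediate on both strands. Within such pairs of these bins the strands differed by 19.3 points against 17.6 from counting. In partial bins an intermediate strand was thus paired with another intermediate strand more often than not. The reports hold counts per cytosine and do not record which sites were read on the same molecule.

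The replicates gave a second reading. At 251704 CG sites with at least 5 reads in each, the replicate levels had r = 0.915 across sites. A site that was high in replicate 1 was high in replicate 2 in 78.6% of cases, and a low site was low again in 96.9%. A site intermediate in replicate 1 was intermediate in replicate 2 in 38.4% of cases, compared with 8.44% of all these sites. Of the same sites 29.5% were low and 32.2% high in replicate 2. A site intermediate in replicate 2 was intermediate in replicate 1 in 34.3% of cases, compared with 7.54% of all these sites. At the 5581 sites with at least 10 reads in each replicate these shares rose to 56.8% (against 11.04%) and 47.7% (against 9.28%). Only 0.558% of sites were high in one replicate and low in the other. The bin levels of the replicates had r = 0.770 over 10679 bins and differed by a median of 5.50 percentage points, and by 16.4 points at the 90th percentile.

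To read the bins in data that had not chosen them, the rule was also applied to one replicate and the chosen bins were read in the other. Of 10607 bins chosen in replicate 1 and scored in replicate 2, 78.3% were partial again, 12.3% were unmethylated (both levels below 5%), 5.45% had CG but no CHG methylation and 0.0189% were methylated in both contexts. The share of partial bins among all bins scored in replicate 2 was 10.5%. In the reverse direction 76.7% were partial again, against 10.3% of all bins in replicate 1. Bins that left the class thus moved mainly across the CG limits and almost never into fully methylated DNA.

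The rule did not use the adjoining bins, and these were mostly not fully methylated. However, its CHG limit left out 4235 bins with partial CG methylation and more CHG. The shares with a fully methylated neighbour are thus partly set by the rule and are a description. Among the bins on either side of a partial bin, 46.4% were unmethylated, 20.8% were partial, 20.3% had CG but no CHG methylation and 6.99% were methylated in both contexts. For all scored bins the corresponding shares were 42.3%, 10.3%, 6.74% and 31.1%. At least one neighbour methylated in both contexts was present at 1493 partial bins (13.9%; 13.98 ± 0.568%, n = 2) at 9.26% of unmethylated bins and at 2.71% of bins with CG but no CHG methylation. The share over all scored bins was 41.7%, which includes methylated bins beside each other, 93.7% of which had such a neighbour. At least one neighbour with CG but no CHG methylation was present at 39.4% of partial bins, 11.8% of all scored bins and 5.57% of unmethylated bins. Conversely, 51.8% of the bins with CG but no CHG methylation had a partial neighbour. The share with a methylated neighbour depended on the scale and the CHG limit, and was 7.499% with bins of 500 bp, 21.4% with bins of 2 kb, 8.22% with a CHG limit of 2% and 4.10% at sites with at least 20 reads.

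Ordered by their neighbours, the partial bins fell into 5 groups. The first held the 1493 bins with a methylated neighbour, whose median CG level was 11.8% and median CHG level 1.89%. The largest, 4029 bins (37.6%), had a neighbour with CG but no CHG methylation and none methylated in both contexts, and a median CG level of 25.02%. A further 3166 bins (29.6%) had a partial neighbour but none of the former, with a median of 21.4%. Isolated bins with unmethylated DNA on both sides numbered 1478 (13.8%) and had a median of 14.4%. The other 539 (5.04%) had a neighbour that was unscored or fell in none of these classes. Intermediate bins made up 19.5% of the group with a methylated neighbour and 19.2% of the isolated bins, 23.9% of the 539 bins with unscored or unclassed neighbours and 9.88% of those beside CG but no CHG methylation. Over single sites the contrast was small, since intermediate sites were 35.7% (33.2 ± 1.29%, n = 2) of the sites at 20% or more beside a methylated neighbour and 33.6% (29.5 ± 2.81%, n = 2) beside CG but no CHG methylation.

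**Figure D2:**
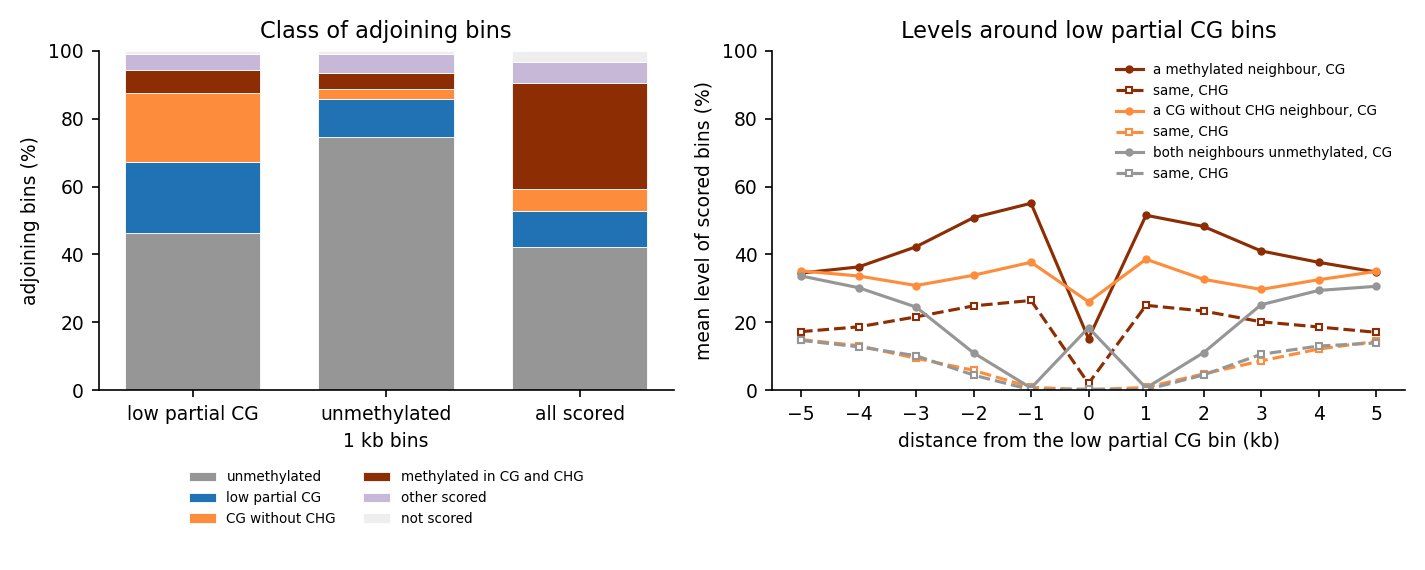
Left, share of the adjoining bins (y axis, percent) in each class for partial, unmethylated and all scored bins; right, mean CG (solid) and CHG (dashed) level of scored bins (y axis, percent) against distance from the partial bin (x axis, kb) for 3 groups of partial bins. Neighbours methylated in both contexts made up 6.99% of the sides of partial bins, a share partly set by the CHG limit of the rule, and 31.1% of those of all scored bins. Isolated bins stood at a mean CG level of 18.4% between bins at 0.674% and 0.693%.

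Most partial bins (62.4%) had no partial bin beside them. A partial neighbour was present at 37.6%, against 18.9% of all scored bins and 21.3% of unmethylated bins. There were 6681 single bins, 1454 runs of 2, 281 runs of 3, 51 of 4, 11 of 5, and single runs of 6 and 8. The run of 8 bins lay at AnagrOXF.S4:17243001-17251000 between bins with CG but no CHG methylation. Its bin levels in the merged report were 41.8%, 24.0%, 20.2%, 9.57%, 9.54%, 25.3%, 31.6% and 37.8% in CG, so the level dipped in the middle of the run. Over the run the CG level was 23.7% in replicate 1 and 26.4% in replicate 2, and the merged CHG level was 0.0621%. It held 105 low, 46 intermediate and 19 high sites. The run of 6 bins at AnagrOXF.S1:11251001-11257000 lay between unmethylated bins, with CG levels of 21.1% and 24.9% in the replicates and a CHG level of 0.0415%. The first run of 5 bins in genome order, at AnagrOXF.S1:9589001-9594000, had bin levels of 10.6%, 13.9%, 38.7%, 6.54% and 36.9% in CG and was the only one of these 3 runs in which high sites (35) outnumbered intermediate ones (18). Each of these runs was broken in a replicate by the CG limits of the rule: the first bin of the run of 8 stood at 51.3% in replicate 2, the fourth bin of the run of 6 at 3.77% in replicate 1, and the second bin of the run of 5 at 4.37% in replicate 2. None of the 3 runs overlapped a listed gene or TE, but the lists at hand held only part of the genes and TEs.

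In bins with methylated DNA on one side and an unmethylated bin on the other, the methylated sites gathered on the methylated side. In 3032 bins with CG but no CHG methylation on one side, the CG level fell from 58.3% in the first 100 bp to 26.1% at 401 to 500 bp and 2.39% in the last 100 bp, while CHG stayed between 0.119% and 0.192%. High sites fell from 50.2% to 1.36% of the sites, and intermediate sites from 17.9% to 1.73%. In 962 bins with a neighbour methylated in both contexts, methylation reached less far into the bin. The CHG limit of the rule admits only bins with a short stretch of such DNA, so this profile and the patch spans beside such neighbours are a description. The CG level was 79.98%, 56.6%, 32.9%, 15.3% and 6.38% over the first 5 steps of 100 bp, and 0.564% in the last. CHG fell with it, from 23.8% through 13.4% and 6.14% to 0.110%. Intermediate sites were most frequent in the second step from such a neighbour, at 23.9% of the sites.

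**Figure D3:**
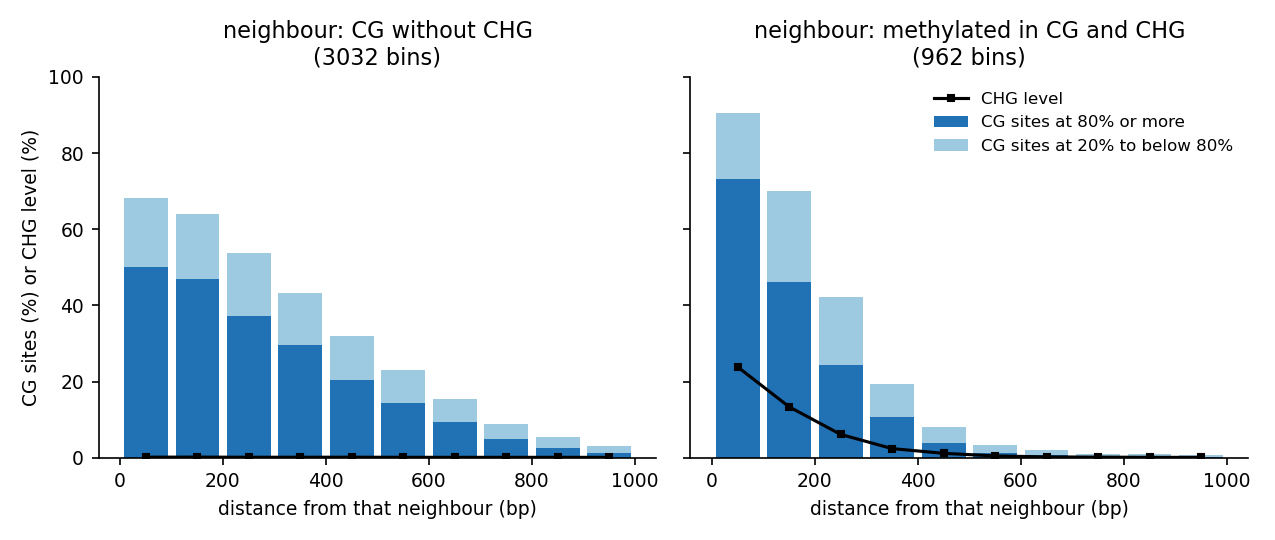
Share of CG sites that were high (dark) or intermediate (light) and mean CHG level (line), all in percent on the y axis, against distance from the methylated neighbour in steps of 100 bp (x axis), for partial bins with CG but no CHG methylation on one side (left, 3032 bins) and with a neighbour methylated in both contexts on one side (right, 962 bins). CHG fell from 23.8% to 0.110% on the right and stayed below 0.2% on the left.

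Within a bin, high sites formed patches that were interrupted by low sites more often than not. In the 8035 bins with at least 3 high sites, the first and last high site were a median of 280 bp apart (quartiles 119 and 498 bp) and a median of 6 sites were high. Between them 56.8% of the sites were high, 13.9% intermediate and 29.3% low, and outside them 94.3% were low. The span begins and ends at a high site by definition, so no site outside it could be high. The contrast of inside and outside is therefore partly fixed and is a description. A patch without any low site was found in 36.5% of these bins. Beside a methylated neighbour this was 81.7%, with a median span of 131 bp. In isolated bins it was 38.5% with 202 bp, and beside CG but no CHG methylation 25.5% with 350 bp. At a finer scale, 5395 of 10551 bins (51.1%) held a stretch of 250 bp below 5% together with another at 50% or more. The state of a site was shared mainly with very close sites. After a high site, the next site was high in 81.0% of cases at 2 to 10 bp, 59.3% at 11 to 25 bp, 37.9% at 26 to 50 bp and 34.2% at 101 to 200 bp. After a low site the next was high in 0.502% of cases at 2 to 10 bp and 13.0% at 101 to 200 bp.

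CHG cytosines that lie between high CG sites are among those that the rule averaged, so their levels are a description and the distance between the classes is partly set by the CHG limits. In partial bins the 43080 such cytosines had a mean level of 2.08% (2.56 ± 0.102%, n = 2), and 92.3% of them were at 0. In bins methylated in both contexts the corresponding level was 66.1% (66.1 ± 0.945%, n = 2), and in bins with CG but no CHG methylation it was 0.353% (0.372 ± 0.0141%, n = 2). The groups by neighbour differed by more than the SD of the replicates. That SD does not cover the gap between merged and replicate values. The level was 17.9% (20.6 ± 0.514%, n = 2) in bins with a methylated neighbour, 0.226% (0.246 ± 0.0282%, n = 2) beside CG but no CHG methylation, 0.545% (0.689 ± 0.104%, n = 2) beside other partial bins and 0.727% (1.11 ± 0.00754%, n = 2) in isolated bins. In the 539 bins whose neighbours were unscored or in no class it was 11.8% (14.4 ± 0.731%, n = 2). In isolated bins the merged level lay further from its own replicates than from the merged level beside other partial bins. A further 4235 bins with partial CG methylation had more CHG than the rule allowed and are not among these groups. The mean over all partial bins was 0.453% with a CHG limit of 2%, 0.749% with bins of 500 bp, 3.50% with bins of 2 kb and 3.42% at sites with at least 20 reads.

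**Figure D4:**
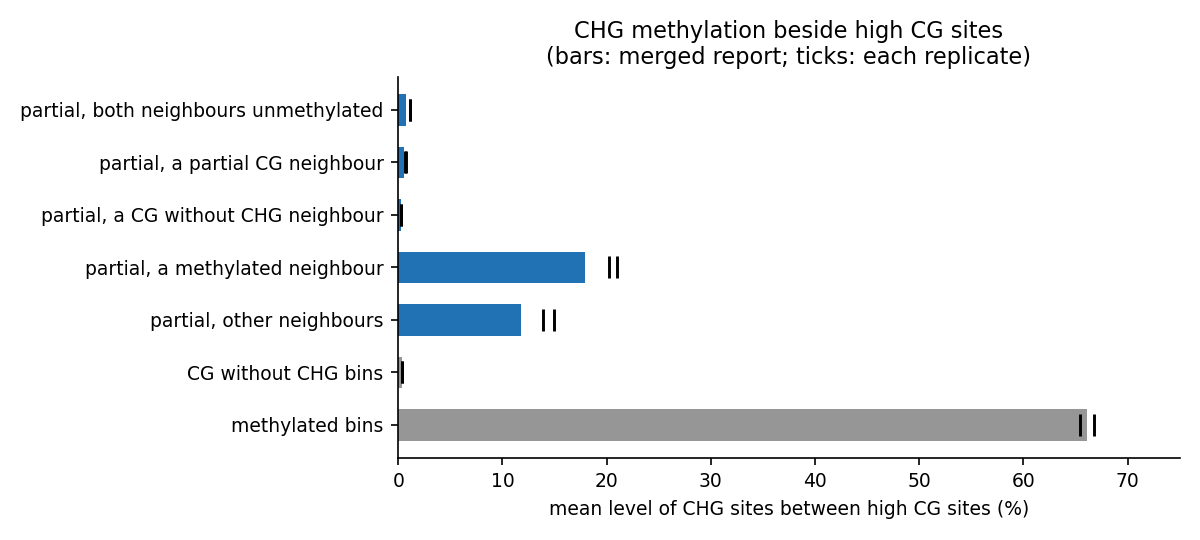
Mean level of the CHG cytosines between high CG sites (x axis, percent) for partial bins grouped by neighbour, bins with CG but no CHG methylation and bins methylated in both contexts (y axis); bars are the merged report and ticks the replicates. The bars reached 17.9% in partial bins with a methylated neighbour and 11.8% in those with unscored or unclassed neighbours, lay between 0.226% and 0.727% in the remaining groups of partial bins, and reached 66.1% in fully methylated bins.

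In fully methylated bins, CCG cytosines between high CG sites were less methylated than CAG and CTG, at 29.5% against 76.7% and 72.5%. In flowering plants CAG and CTG are preferred by chromomethylase. The order was similar in partial bins with a methylated neighbour, at 10.97% for CCG, 21.0% for CAG and 20.3% for CTG, over 997, 1269 and 1230 cytosines. With unscored or unclassed neighbours CCG was also lowest, at 6.01% against 15.8% and 11.7%. In the remaining groups CCG was highest. It was 0.460% against 0.180% and 0.190% beside CG but no CHG methylation, and 0.584% against 0.542% and 0.532% beside partial bins. In isolated bins it was 0.895% against 0.736% and 0.620%. Over all partial bins the levels were 2.14%, 2.16% and 1.97%.

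CHH methylation, which the rule did not use, was nearly as low as in unmethylated bins. The mean over partial bins was 0.135% (0.136 ± 0.00155%, n = 2), compared with 0.0997% (0.101 ± 0.00722%, n = 2) in unmethylated bins and 2.08% (2.08 ± 0.0450%, n = 2) in bins methylated in both contexts. The small excess over unmethylated bins was larger than the SD of the replicates. With a CHG limit of 2% the mean was 0.105%. The excess was then within the SD of the unmethylated bins but not within that of the partial bins. Bins with a methylated neighbour had 0.255% (0.262 ± 0.00865%, n = 2), and bins beside CG but no CHG methylation had 0.0991% (0.0973 ± 0.00234%, n = 2). Isolated bins had 0.126% (0.132 ± 0.00696%, n = 2).

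Partial bins were found at like frequency on every chromosome, from 10.1% of the scored bins of AnagrOXF.S3 to 10.9% of AnagrOXF.S2, with median CG levels of 18.5% to 19.8%. The median CG level over all of them was 19.2% (quartiles 10.3% and 33.2%). CHG was exactly 0 in 5175 bins (48.3%) and below 1% in 8915 (83.3%). In base composition they lay between bins with CG but no CHG methylation and unmethylated bins. Their median GC content was 48.3%, against 47.7% and 51.3%, and their median number of CG cytosines on both strands was 56, against 48 and 80. The ratio of observed to expected CG was 0.507, against 0.432 and 0.629. Depth was alike, with a median of 10.6 reads per cytosine in partial and in unmethylated bins and 10.5 in those with CG but no CHG methylation. Partial bins with a methylated neighbour differed from the others in composition, with a median GC content of 45.9%, 68 CG cytosines and an observed to expected ratio of 0.674, near the 46.9%, 64 and 0.618 of fully methylated bins.

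The base after the CG went with its level. In partial bins the mean level was 24.3% at CGA, 22.3% at CGC, 19.6% at CGG and 16.5% at CGT. Of the CGT sites at 20% or more, 44.5% were intermediate, against 29.5% to 33.8% for the others. CGT was also lowest in bins with CG but no CHG methylation, at 58.2% against 71.4% to 74.7%. In bins methylated in both contexts it was 92.9% against 94.4% to 94.6%. These are descriptions over cytosines that share libraries, and no spread between replicates was computed for them.

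The 9 named bins were those with the most covered CG sites in each class among bins classed alike in both replicates. In the all-or-none bin AnagrOXF.S3:18093001-18094000, 104 sites were low, 15 high and none intermediate, and its CG level was 20.1% in replicate 1 and 11.96% in replicate 2. Its right neighbour was methylated in both contexts and its left one unmethylated. The bin AnagrOXF.S1:13563001-13564000, the source of all-or-none window 2, had the same neighbours, a merged CHG level of 4.42% and CG levels of 11.8% and 15.8% in the replicates. In contrast, AnagrOXF.S1:14952001-14953000, the source of all-or-none window 1, lay between unmethylated bins, with a CHG level of 0.105% and CG levels of 21.8% and 18.5%.

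Of the mixed bins, AnagrOXF.S3:13246001-13247000 had 65 low, 11 intermediate and 11 high sites, and CG levels of 11.8% and 20.7% in the replicates. The bin AnagrOXF.S2:26964001-26965000, the source of mixed window 1, lay between a fully methylated bin and a bin with CG but no CHG methylation, and had CG levels of 15.6% and 12.9%. At AnagrOXF.S2:10177001-10178000 the levels were 7.03% and 6.73%, and no CHG methylation was read. None of these 6 bins overlapped a gene or TE of the partial lists, which does not show that none lies there.

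The intermediate bin AnagrOXF.S4:689001-690000 had 33 intermediate and 2 high sites among 111, an index of 0.322 and unmethylated neighbours on both sides. Its CG level was 16.4% in replicate 1 and 9.20% in replicate 2. At AnagrOXF.S5:12474001-12475000, which overlapped the gene AnagrOXF.S5G288500, the level was 1.59% and 7.88%, so that replicate 1 by itself lay below the limit of the rule. At AnagrOXF.S5:9215001-9216000, which overlapped the TEs TE_homo_73512 and TE_homo_73511, 96 sites were low, 8 intermediate and none high, with CG levels of 5.76% and 8.19% and a median of 21 reads. Its index of 0.0777 was far below the median of the partial bins. All 3 were classed as intermediate in both replicate reports.

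**Figure D5:**
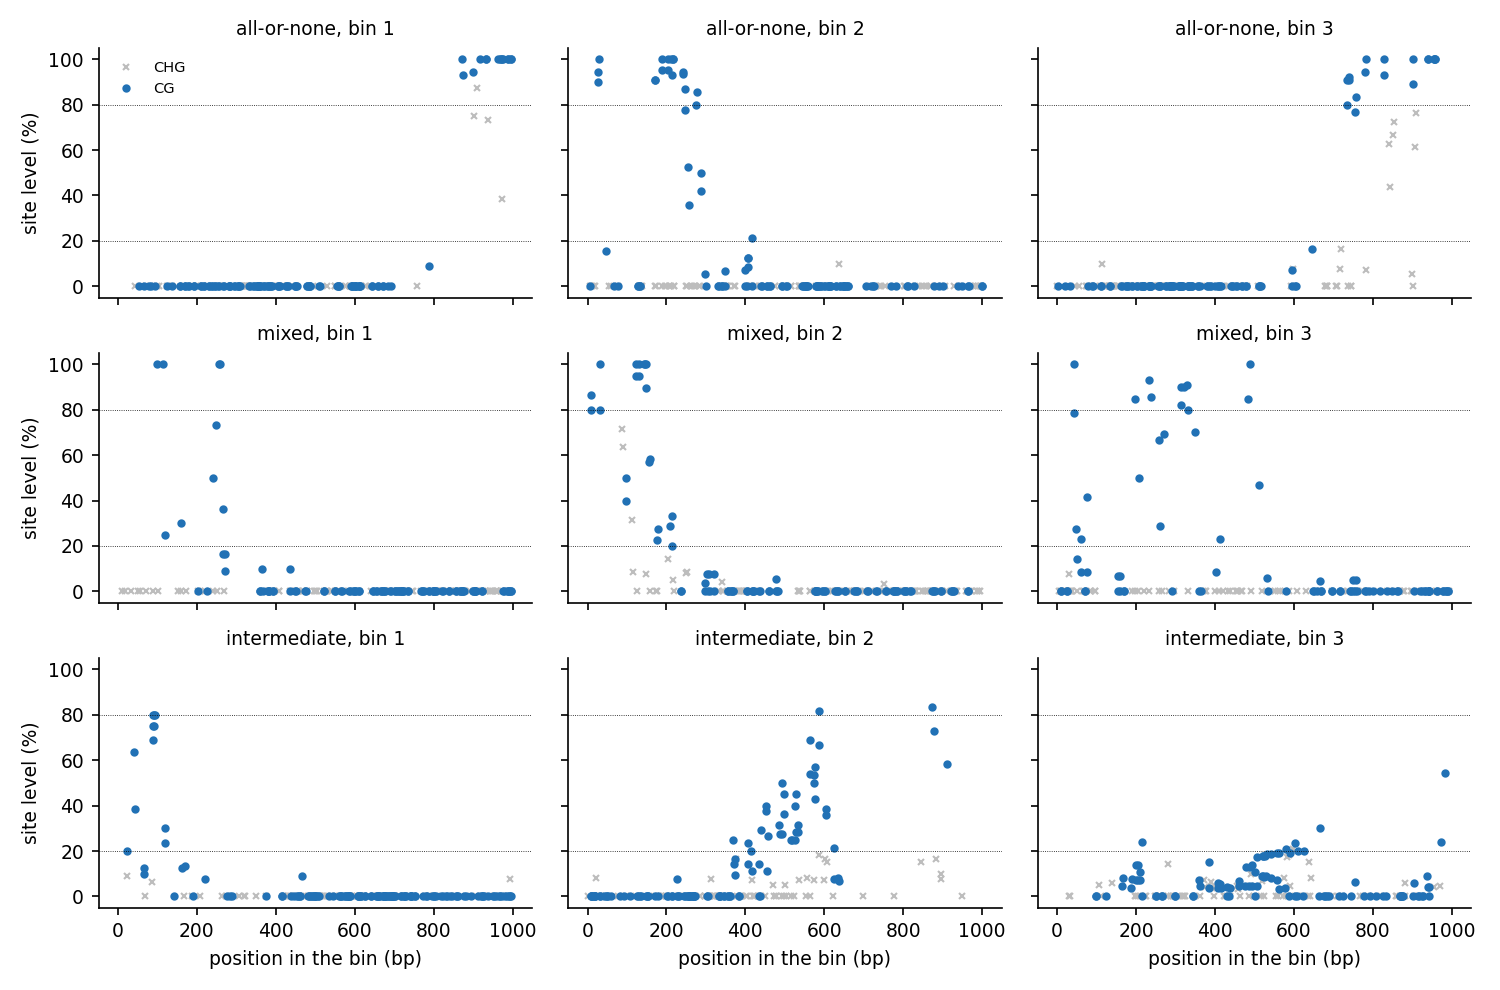
Level of each covered CG site (blue points) and CHG site (grey crosses) in percent (y axis) against position in the bin in bp (x axis) for the 9 named bins in the merged report, with lines at 20% and 80%. High sites of all-or-none bins stood in blocks over a floor at 0, and in the second intermediate bin, AnagrOXF.S4:689001-690000, 33 of 111 sites filled the band between the lines.

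The limits of the rule cut through continuous distributions. There were 718 bins with a CG level of 4% to below 5% and otherwise eligible, and 628 at 5% to below 6%. At the upper limit there were 182 bins at 49% to below 50% and 172 at 50% to below 51%, and at the CHG limit 345 bins at 4% to below 5% and 308 at 5% to below 6%. The nearest bin inside the lower CG limit stood at 5.00% and the nearest outside at 4.997%. At the upper limit they stood at 49.98% and 50.01%. Just outside the CHG limit, a bin with 6 covered CHG sites stood at a CHG level of 5.00%. Inside the CHG limit, AnagrOXF.S2:21337001-21338000 stood at a CHG level of 4.99%. It had 91 low, 4 intermediate and 8 high CG sites and overlapped the gene AnagrOXF.S2G467600 and the TEs TE_homo_37964, TE_homo_37965 and TE_homo_37966.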

How the data were processed

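EM-seq libraries of 2 biological replicates of wild type *A. agrestis* thalli were sequenced by the authors, who trimmed the reads with Trim Galore, mapped them to the Oxford assembly with Bismark and Bowtie2, removed duplicates and listed every cytosine; SAMtools 1.9 and bedtools 2.27.1 are named in the same notes. The values the authors deposited are raw counts of methylated and unmethylated reads per cytosine, in 3 reports (replicate 1, replicate 2, merged reads). No filter or normalization had been applied to the counts, so low depth makes single levels coarse.

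From these counts a level was computed per cytosine (at least 10 reads in the merged report, 5 in a replicate) and averaged by context over bins of 1000 bp with at least 5 CG and 5 CHG sites. Positions count from 1. With a single group there was no test, and the SD of 2 replicates is itself imprecise. Sequence came from the listed contexts: 9000 bases were rebuilt with 0 conflicts and 1200 bases left as n. Partial lists of genes and TEs (1957 and 1929 on these chromosomes) served only to name overlaps. Of the partial bins, 149 overlapped a listed gene and 94 a listed TE. The share over all scored bins was not computed, so these counts do not describe a trait of the partial bins. No overlap was tested.

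The bins named were the 3 with the most covered CG sites per class among those classed alike in both replicates, the 3 longest runs (ties in genome order), and the bins nearest each limit. The partial bins, classes and lists were chosen with earlier results of these data known. Alternatives were read minimums of 5 and 20, summed replicates, an upper limit of 27 reads, pooled reads, each replicate alone, other bin sizes and offsets, 10 CG and CHG sites, a CHG limit of 2% and other site limits. Python 3.11.15 was used with Matplotlib 3.10.9, PyArrow 21.0.0, SciPy 1.17.1 and NumPy 2.4.6, and the calculation was tested on simulated reads.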

Additional observations from a re-analysis of the deposited data

How the results depend on the processing

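No paired analysis was possible because the samples form a single group and no test was made. For partial bins with the settings used, the values were 10705 bins, 8.87% intermediate CG sites, an index of 0.778, 13.9% with a methylated neighbour, 2.08% CHG beside high CG sites and 0.135% CHH. With a replicate left out, these ranged from 10640 to 10848 bins, 7.68% to 8.81%, 0.783 to 0.813, 13.5% to 14.4%, 1.91% to 2.03% and 0.135% to 0.136%. Summed replicates, an upper depth limit and pooled reads moved none of the 6 values by more than the SD of the replicates. At 20 reads or more, 366 bins were left, with 13.9% intermediate sites, an index of 0.418, 4.10% with a methylated neighbour, CHG of 3.42% and CHH of 0.176%, so depth limits what the deepest sites can say about the whole class. Bins of 500 bp gave 12.5%, 0.726, 7.499% and 0.749% for the 4 middle values, and bins of 2 kb gave 6.48%, 0.816, 21.4% and 3.50%, with CHH at 0.137%. A CHG limit of 2% gave 8.22% with a methylated neighbour, CHG of 0.453% and CHH of 0.105%. Smaller shifts were CHG of 2.18% and CHH of 0.138% at 5 reads, CHH of 0.132% for shifted bins, and 13.1% with a methylated neighbour and CHH of 0.133% at 10 CG and CHG sites. Site limits of 10% and 90% gave 14.4% intermediate sites and limits of 30% and 70% gave 5.35%. The causes of these shifts were not tested.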
